A study of Homo sapiens with 10 samples.

Results

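HOX genes are the clustered homeobox genes. They were taken as all genes whose symbol is HOX, a cluster letter from A to D and a number. RefSeq lists 39 such genes in 4 clusters, and 23 of them had a named probe set on the arrays, out of 17687 measured genes. These were HOXA2, 8 of 10 HOXB genes, 6 of 9 HOXC genes and 8 of 9 HOXD genes. The other 16, among them 10 of 11 HOXA genes, HOXB3, HOXB4, HOXC4, HOXC5, HOXC6 and HOXD1, were not analysed here.

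HOX genes encode transcription factors that bind DNA through a homeodomain and set positional identity along the body axis. In each cluster they lie in a fixed order, from low paralogue numbers used in anterior regions to high numbers used in posterior regions. In blood, HOXA and HOXB genes are known from stem and progenitor cells, and their levels normally decline as cells mature. Trithorax-type complexes keep the clusters open, whereas Polycomb complexes keep them silent, and DNA methylation is a further layer of silencing at their CpG-rich promoters.

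Gene expression was measured once in each of 10 conditions on single-colour arrays, with biotin-labelled total RNA from established human cell lines. Parental HL60 (acute myeloid leukaemia), K562 (chronic myeloid leukaemia), MDSL and SKM1 (both from myelodysplastic syndrome) each gave 1 untreated control array and 1 array after 96 hours with OR21. OR21, or OR-2100, is a hypomethylating agent in the words of the series title. HL60 and K562 received 500 nM, and MDSL and SKM1 received 100 nM. AZA resistant HL60 and OR21 resistant HL60 gave 1 array each, with no dose listed. The 96 hours are listed for all 10 arrays, controls and derivatives included. The labels do not say how the resistant derivatives were selected or whether each is 1 clone or a mixed population. Per the labels, MDSL grew in medium with interleukin-3, and none is listed for the SKM1 and HL60 media. A medium for K562 is not named. In RNA from whole cultures, fewer cells that express a gene and less RNA per cell cannot be told apart.

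Levels are log2 intensities. A gene was called above background on an array when its level was over the 95th percentile of the array's 23 background probe sets, a limit of 6.95 to 7.12 log2. Gene medians were 6.63 to 7.05 log2, and 46.0% to 49.6% of all genes were above the limit on a given array. Hybridisation control transcripts averaged 11.71 log2 on the OR21-treated HL60 array, above the range of 10.85 to 11.10 seen elsewhere. The promyelocytic markers MPO, AZU1, PRTN3 and CTSG were 4 of 4 above background on each HL60 array and 0 of 4 in K562, where the erythroid markers HBE1, HBZ and GATA1 were 3 of 3 above. MDSL and SKM1 expressed all 4 promyelocytic markers, and MDSL was the line with CD34, the progenitor antigen, above background. Of markers of other cell types, 1 of 2 for B lymphocytes and 1 of 3 for fibroblasts were above background on every array, 0 to 1 of 3 for T lymphocytes and 0 to 2 of 3 for epithelium. Their part in the HOX results was not tested.

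The untreated lines carried little signal of the 23 measured HOX genes outside K562. HOXA2 was the 1 HOXA gene measured of 11, and HOXB3 and HOXB4 were not measured. The levels of these other genes in the lines are not known from these values. In control HL60, MDSL and SKM1, 0 of 23 HOX genes were above background, against 46.8%, 48.5% and 48.1% of all genes. In control K562 4 were, HOXB2, HOXB7, HOXB9 and HOXC9, against 46.0% of all genes. Over the 10 arrays 6 of 23 members were above background at least once, against 60.5% of all genes, with HOXC10 and HOXD13 added by the resistant HL60 derivatives. On at least 1 of the 4 controls 4 were, against 56.1% of all genes. After OR21 the same 4 genes were above background in K562 (47.0% of all genes), HOXB2 in MDSL (49.6%), and 0 in HL60 (48.0%) and SKM1 (49.3%). The other 17 members were at or under the limit on all 10 arrays. The contrast with K562 depended on the limit. With the limit at the median of the background probe sets, control HL60, MDSL, SKM1 and K562 had 4, 7, 5 and 6 members. By that count K562 did not stand out. With the limit at each array's gene median these controls had 0, 1, 1 and 5 members.

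**Figure D1:**
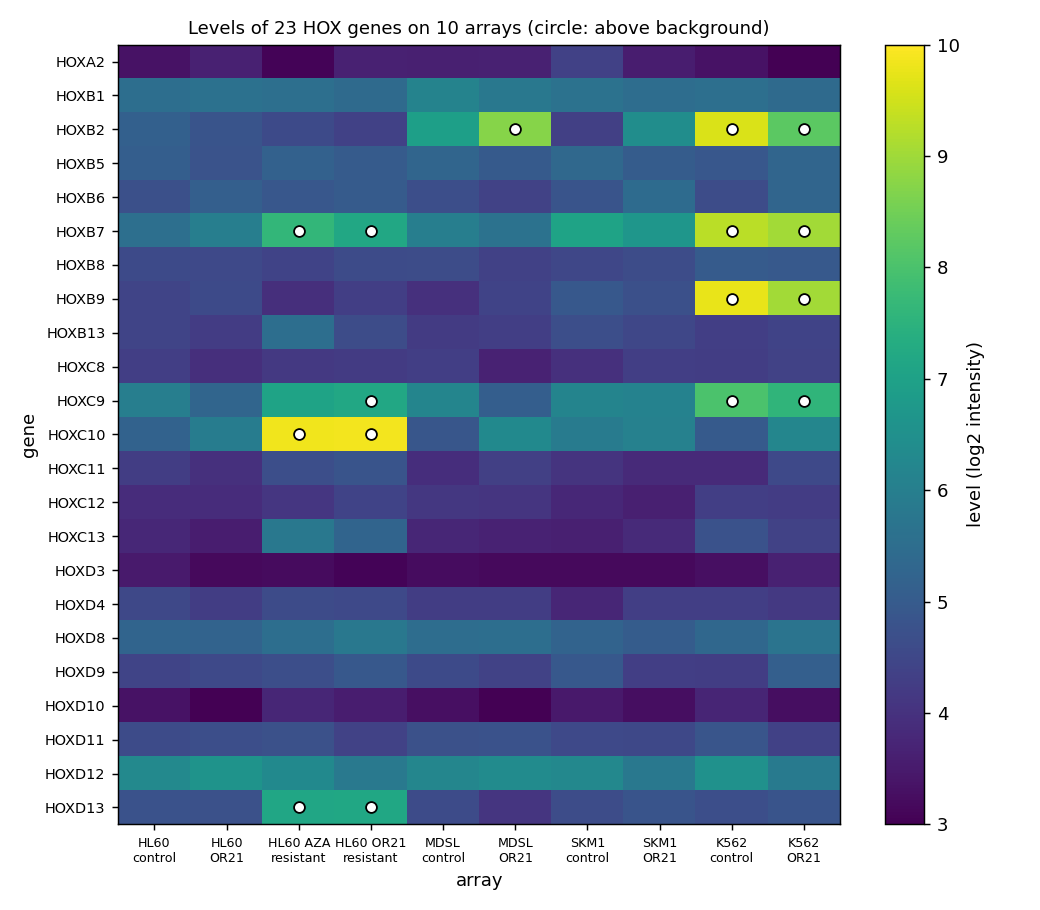
Level in log2 intensity (colour) of the 23 measured HOX genes (rows, by cluster and paralogue number) on the 10 arrays (columns, 1 array each). A circle marks a level above the background limit of that array: 4 genes in K562, 3 in the AZA resistant and 4 in the OR21 resistant HL60 derivative, and HOXB2 in OR21-treated MDSL.

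HOXB9, a posterior HOXB gene, was above background on the K562 arrays and on none of the 8 others. It stood at 9.76 log2 in control and 9.04 in OR21-treated K562. The 8 other arrays lay between 3.93 log2 in AZA resistant HL60 and 4.94 in control SKM1. The share of all genes with both K562 arrays above the rest was not counted. HOXB9 differed between the 4 lines in limma's F test over the 8 control and treated arrays (adjusted p = 5.47e-04). This test called 4 of 23 members and 31.1% of all genes.

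HOXB7, a HOXB gene also known as a growth regulator in cancer cells, was highest in K562 too, at 9.28 log2 in control and 9.04 in OR21-treated cells. Control SKM1 was at 7.06 and OR21-treated SKM1 at 6.67, both at or under their limits. MDSL had 6.00 and 5.64 log2, and HL60 5.55 and 5.99, in control and OR21-treated cells in turn. HOXB7 differed between the lines (adjusted p = 0.00149 in limma's F test).

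HOXC9, which helps to set thoracic identity in the embryo, stood at 8.03 log2 in control and 7.58 in OR21-treated K562. The controls of SKM1, MDSL and HL60 were at 6.16, 6.19 and 6.00 log2, and their OR21-treated arrays at 6.09, 5.10 and 5.27. HOXC9 differed between the 4 lines in the F test (adjusted p = 0.00779).

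HOXB2, an anterior HOXB gene of the hindbrain that is also expressed in erythroid cells, stood at 9.59 log2 in control K562, 6.96 in MDSL, 5.14 in HL60 and 4.32 in SKM1. The last 3 were at or under their limits, so their order is not resolved. HOXB2 differed between the lines in limma's F test (adjusted p = 0.0283). None of these 4 calls held in the F test without K562, with adjusted p from 0.0564 for HOXB2 to 0.495 for HOXC9. That fit called 0 of 23 members and 2879 of 17687 genes, in place of 5504. When HL60, the line with the high spike array, was left out, the same 4 genes were called, HOXB2 at adjusted p = 0.0470. With values floored at the background limit HOXB7 and HOXB9 were called and HOXB2 and HOXC9 were not (adjusted p = 0.235 and adjusted p = 0.0687). Over all genes 2695 were called with floored values. The F test takes the control and the OR21 array of a line as its 2 arrays, so it sets line differences against the spread of the OR21 response, not against replicate cultures.

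**Figure D2:**
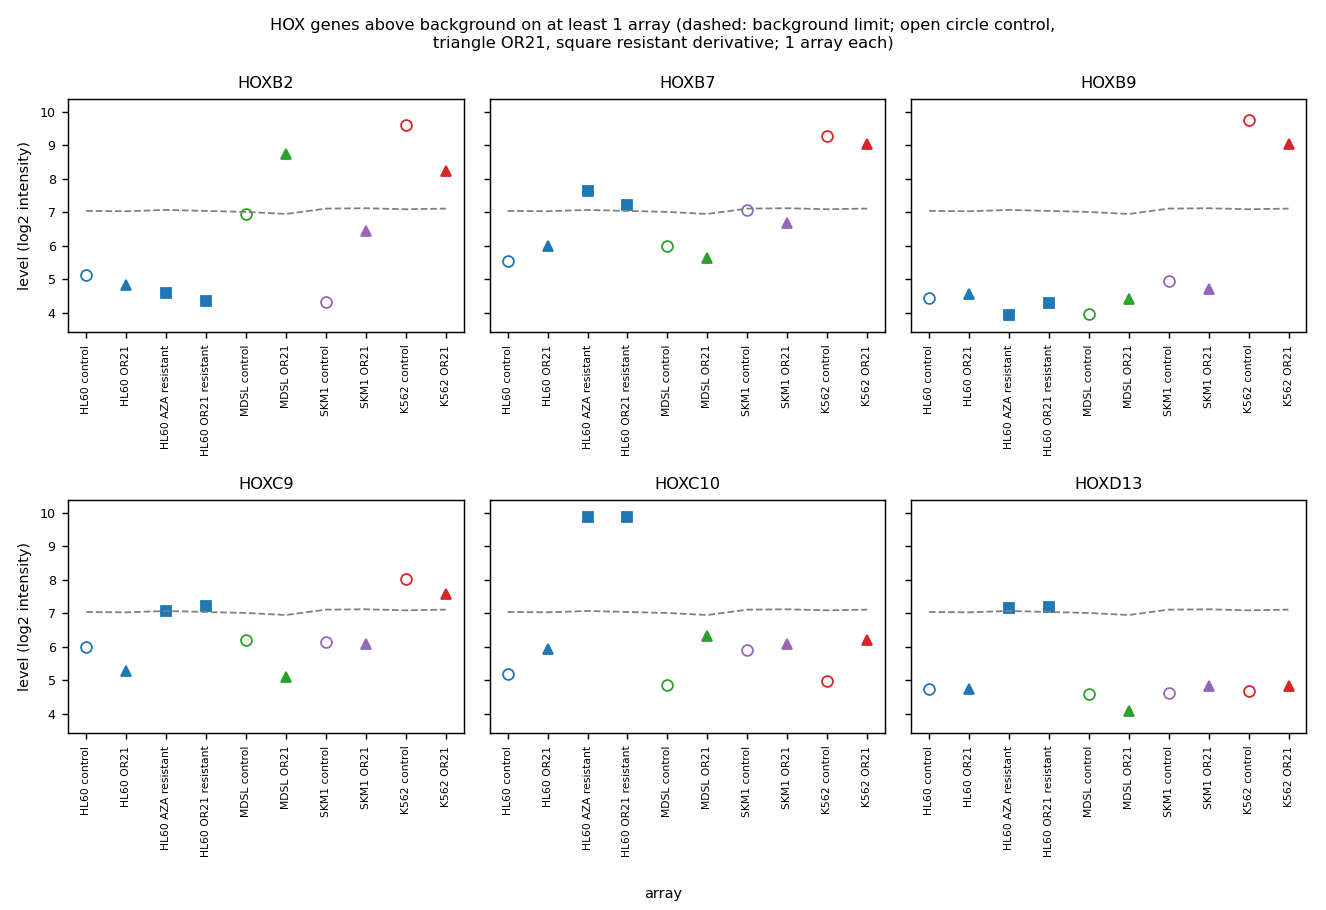
Level in log2 intensity (vertical axis) on each of the 10 arrays (horizontal axis) for the 6 HOX genes above background on at least 1 array. Open circles are controls, triangles OR21-treated cells and squares resistant derivatives, 1 array each, and the dashed line is the background limit. HOXB2, HOXB7, HOXB9 and HOXC9 are high in K562, while HOXC10 and HOXD13 pass the limit in the 2 derivatives alone among these 10 arrays.

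The design compares OR21-treated with untreated cells. Over the 4 lines, 0 of 23 HOX genes passed the test in limma with the line as a block, against 0.0396% of all genes, and their adjusted p ranged from 0.152 to 0.996. At an unadjusted p under 0.05 there were 2 members, HOXC9 and HOXC10, against 19.1% of all genes. The median difference over the members was -0.07 log2 and over all genes -0.02.

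HOXC10, a posterior HOXC gene of the hindlimb and lumbar region, was higher in 4 of 4 lines after OR21. In log2 it had 5.20 without and 5.95 with OR21 in HL60, and 4.87 and 6.33 in MDSL. SKM1 had 5.90 and 6.08, and K562 4.99 and 6.20. All 8 levels were at or under background. The mean difference of 0.90 ± 0.56 log2 (SD, n = 4 lines) did not pass (adjusted p = 0.152 in limma), and with values floored at the background limit it was -0.01. HOXC9 was lower in 4 of 4 lines, by a mean of -0.59 ± 0.44 log2 (SD, n = 4 lines), which did not pass either (adjusted p = 0.226), and with floored values its mean was -0.13. K562 was the line with both HOXC9 arrays above background, and its difference was -0.46 log2.

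HOXB2 went in opposite ways between lines. After OR21 it was at 8.73 log2 in MDSL, against 6.96 in the control, which lay just under its limit of 7.01, a level at least 3.28-fold higher. In K562 it was at 8.24 log2 against 9.59, 2.55-fold lower, with both arrays above background. In SKM1 it went from 4.32 to 6.44 log2 and in HL60 from 5.14 to 4.83, all at or under the limit. Its mean difference was 0.56 ± 1.67 log2 (SD, n = 4 lines, adjusted p = 0.660 in limma), and the spread between lines exceeded the mean. It was 0.03 without SKM1, 0.15 without MDSL, 0.85 without HL60 and 1.19 without K562, and 0.10 with values floored at the limit. HOXB2 and HOXD9 were the 2 members with 1 sign in both lines at 500 nM and the other in both at 100 nM, as were 10.3% of all genes. The summed intensity of the erythroid markers HBE1, HBZ and GATA1 was 11.04 log2 without and 12.95 with OR21 in MDSL, and 7.32 and 10.35 in SKM1. K562 had 15.07 and 17.20, and HL60 7.30 and 7.90. In MDSL GATA1 made up most of the sum, at 10.99 log2 without and 12.88 with OR21. HBZ was under background on both MDSL arrays, and HBE1 was under it in the control and at 8.04 log2 with OR21. In SKM1 and HL60 HBE1 and HBZ were under background with and without OR21, and GATA1 was the marker that passed it with OR21. Their part in the HOXB2 values was not tested.

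By size alone, HOXB2 was the 1 member at least 2-fold higher in MDSL, where 5.55% of all genes were, and the 1 member at least 2-fold lower in K562, where 3.19% were. These counts and those for the derivatives take a gene only if the higher array is above background. No member was at least 2-fold lower in MDSL (4.07% of all genes) or higher in K562 (3.56%). In SKM1 0 members were higher and 0 lower, against 5.50% and 3.60% of all genes, and in HL60 likewise 0 and 0, against 7.86% and 10.0%. The other HOX genes of K562 were lower by less than 2-fold, HOXB9 by 1.64-fold, HOXC9 by 1.37-fold and HOXB7 by 1.18-fold. None of these single-line values has a replicate.

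**Figure D3:**
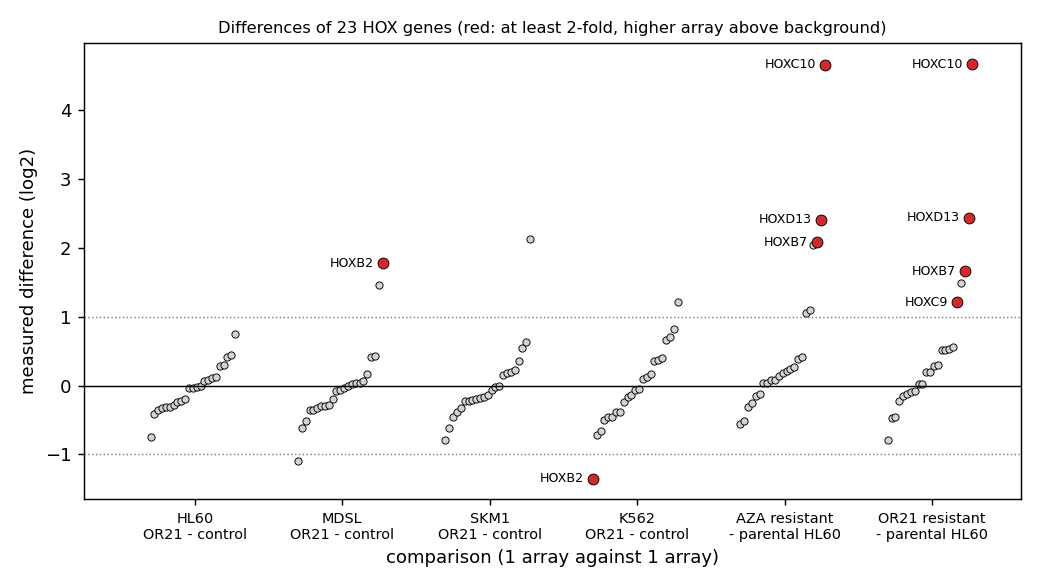
Measured difference in log2 (vertical axis) of each of the 23 HOX genes in 6 comparisons of 1 array against 1 array (horizontal axis), sorted within each. Red points, named, are at least 2-fold with the higher array above background, and dotted lines mark 2-fold. HOXC10 is at 4.65 and 4.66 in the derivatives, where its parental level is under background and the differences from the limit are 2.82 and 2.83, and HOXB2 lies on opposite sides of 0 in MDSL and K562. The 2 derivative comparisons share the parental array.

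The resistant HL60 derivatives carried HOX signal that was not seen in parental HL60, with or without OR21. Parental HL60 had 0 of 23 members above background, the AZA resistant derivative 3 (HOXB7, HOXC10 and HOXD13) and the OR21 resistant derivative 4 (the same 3 and HOXC9). The shares over all genes were 47.5% and 47.9%. Genes above background in the derivative and not in parental HL60 made up 3.49% and 3.58% of all genes. These HOX genes, 3 and 4 in turn, also had measured levels at least 2-fold over parental HL60. Their parental levels were under background, and against the limit HOXC10 alone was at least 2-fold higher. The counts by measured level were 13.0% and 17.4% of the members, against 5.00% and 5.61% of all genes at least 2-fold higher in the AZA and OR21 resistant derivative. No member was 2-fold lower, against 4.49% and 3.47% of all genes. Among the 9410 genes at or under background in parental HL60, 6.56% and 6.73% were above it in the AZA and OR21 resistant derivative. The parental count of 0 depended on the limit. With the limit at the median of the background probe sets, control HL60 had 4 members above it, among them HOXB7 and HOXC9. OR21-treated HL60 had 4, among them HOXB7 and HOXC10, and the AZA and OR21 resistant derivatives had 9 and 6. At each array's gene median the counts were 0, 0, 4 and 4.

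HOXC10 stood at 5.20 log2 in parental HL60, 9.86 in AZA resistant and 9.87 in OR21 resistant HL60. These levels were at least 7.07-fold and 7.12-fold over the limit of the parental array. OR21-treated HL60 was at 5.95 log2, and the 8 arrays of the 4 lines reached 6.33, so both derivatives lay above each of them. The AZA resistant array lay above all 8 for 7 of 23 members and 7.21% of all genes. For the OR21 resistant array it was 7 members and 6.96%. HOXC10, HOXC11, HOXC13, HOXD4 and HOXD13 lay above all 8 on both derivative arrays. The share of all genes that did so on both was not counted. Of these HOXC11, HOXC13 and HOXD4 were at or under background on all 10 arrays.

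HOXD13, the most posterior HOXD gene and a digit-patterning factor, stood at 4.75 log2 in parental HL60, 7.15 in AZA resistant and 7.18 in OR21 resistant HL60. OR21-treated HL60 was at 4.73, and no array of the 4 lines exceeded 4.83 log2. The derivatives' levels were only just over the limit, so HOXD13 was at least 1.08-fold and 1.11-fold higher although the measured differences were 2.40 and 2.43 log2. HOXD11 and HOXD12, the next genes in the cluster, stayed at or under background. They were at 4.74 and 6.33 log2 in the AZA resistant and 4.38 and 5.82 in the OR21 resistant derivative, against 4.60 and 6.30 in parental HL60. EVX2, which flanks the HOXD cluster, was under background too, at 5.90 log2 in parental, 5.62 in AZA resistant and 5.30 in OR21 resistant HL60.

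HOXB7 stood at 5.55 log2 in parental, 7.63 in AZA resistant and 7.21 in OR21 resistant HL60, at least 1.51-fold and 1.13-fold higher. The derivatives were above both HL60 arrays and below both K562 arrays. HOXC9 stood at 6.00 in parental, 7.06 in AZA resistant and 7.21 in OR21 resistant HL60. The limits of the derivative arrays were 7.07 and 7.04, so HOXC9 lay just inside the limit in the OR21 resistant and just outside it in the AZA resistant derivative. HOXC13, the last gene of the HOXC cluster and a hair and nail factor, had 3.77 log2 in parental, 5.81 in AZA resistant and 5.25 in OR21 resistant HL60. All 3 were under background, so no fold is given.

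HOXB2 and HOXB9, high in K562, were not among the genes higher in the derivatives: HOXB2 was at 4.58 and 4.35 log2 and HOXB9 at 3.93 and 4.29 in the AZA and OR21 resistant derivative. The median difference from parental HL60 over the 23 members was 0.18 log2 in the AZA resistant and 0.20 in the OR21 resistant derivative, against -0.02 and -0.07 over all genes. With each array centred on its median these were 0.03 and 0.08 against -0.17 and -0.19. Both comparisons use 1 parental array, so a low or high value there enters both. The derivative arrays resembled each other more (r = 0.992 across 17664 genes other than HOX members) than parental HL60 (r = 0.961 for AZA resistant and 0.960 for OR21 resistant). Their r with control SKM1 was 0.945 for both. These are correlations across genes, which are not independent replicates. PRTN3 and AZU1, primary granule proteins, were at 14.78 and 14.21 log2 in parental HL60. They were at 10.63 and 11.69 in the AZA resistant and 10.90 and 11.63 in the OR21 resistant derivative, and their part in the HOX difference was not tested.

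**Figure D4:**
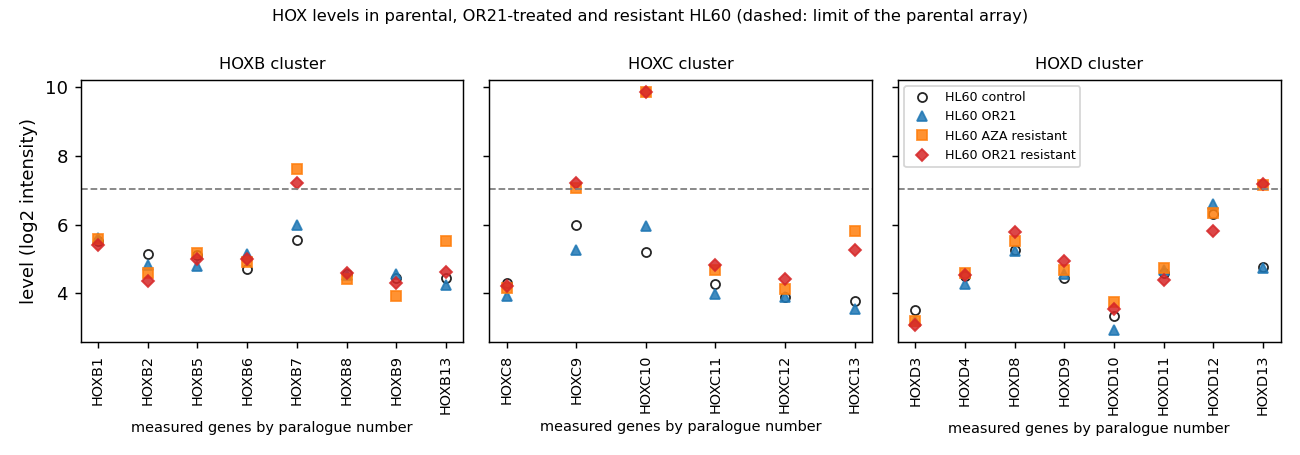
Level in log2 intensity (vertical axis) of the measured HOXB, HOXC and HOXD genes, ordered by paralogue number (horizontal axis), in parental control, OR21-treated, AZA resistant and OR21 resistant HL60, 1 array each. The dashed line is the background limit of the parental array, 7.04. HOXC10 at 9.86 and 9.87, HOXB7 and HOXD13 stand out in the derivatives, while HOXC11 and HOXD12 stay under the line and HOXC9, at 7.06 and 7.21, lies on or over it.

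The sequences before the starts of HOXD13 and the next 2 genes of its cluster, HOXD12 and HOXD11, are shown. They were picked because 1 of the 3 genes just passed the limit in the derivatives and the others did not. RefSeq promoter windows were held for 9 of the 23 members, and HOXC10, HOXB7 and HOXC9 are not among them. The 250 bases before the listed start are printed 5′ to 3′, with each CG dinucleotide, the site of DNA methylation, in capitals.
HOXD11, GRCh38.p14 chr2:176107030-176107279, plus strand: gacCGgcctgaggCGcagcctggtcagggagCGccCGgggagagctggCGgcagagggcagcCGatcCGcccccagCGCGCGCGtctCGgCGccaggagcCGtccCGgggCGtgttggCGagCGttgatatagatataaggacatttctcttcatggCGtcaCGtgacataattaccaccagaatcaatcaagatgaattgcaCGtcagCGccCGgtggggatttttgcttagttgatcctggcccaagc
HOXD12, GRCh38.p14 chr2:176099545-176099794, plus strand: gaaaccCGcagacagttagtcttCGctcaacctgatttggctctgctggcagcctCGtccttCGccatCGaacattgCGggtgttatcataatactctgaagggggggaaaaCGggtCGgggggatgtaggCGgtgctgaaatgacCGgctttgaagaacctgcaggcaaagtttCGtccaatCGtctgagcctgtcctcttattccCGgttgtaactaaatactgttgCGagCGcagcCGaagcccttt
HOXD13, GRCh38.p14 chr2:176092471-176092720, plus strand: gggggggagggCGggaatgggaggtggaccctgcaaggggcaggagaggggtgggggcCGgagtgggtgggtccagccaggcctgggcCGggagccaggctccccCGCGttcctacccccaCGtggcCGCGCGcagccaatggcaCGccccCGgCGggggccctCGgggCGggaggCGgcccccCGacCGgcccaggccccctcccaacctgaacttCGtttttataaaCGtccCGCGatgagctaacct
HOXD11 had 23 CG dinucleotides in this window, HOXD12 16 and HOXD13 21. At least as many were found in 25.8%, 41.0% and 30.2% of 35116 windows of this length over all genes, whose median was 11. The 9 members ranged from 4 in HOXD4 to 28 in HOXD8. The motif TATAAA, searched on both strands, occurred in HOXD13 and in none of the 8 other member windows, against 10.7% of all windows. GGGCGG, searched likewise, occurred in 4 of 9 members, among them HOXD11 and HOXD13 but not HOXD12, against 42.6% of all windows. GGGCGG holds a CG and so shares bases with the capitals. Methylation was not measured here, and a match describes these letters only.

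The 17 members at or under background on all 10 arrays were spread over the 4 clusters. They were HOXA2, the HOXB genes HOXB1, HOXB5, HOXB6, HOXB8 and HOXB13, the HOXC genes HOXC8, HOXC11, HOXC12 and HOXC13, and 7 of 8 HOXD genes, all but HOXD13. HOXA2, a factor of the hindbrain and second branchial arch, was at 2.97 to 4.35 log2. The 5 HOXB genes lay between 4.23 and 6.14 log2, the 4 HOXC genes between 3.55 and 5.81, and the 7 HOXD genes between 2.93 and 6.59. Of the 17, 13 stayed within 1 log2 over all 10 arrays. The widest range was that of HOXC13, 2.26 log2. HOXB13, known as a prostate and colon lineage factor, was highest in AZA resistant HL60 at 5.53 log2, and its other 9 arrays lay between 4.23 and 4.68. At this background, differences among these genes were not detectable, which does not show that the genes are silent.

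HOX proteins bind DNA together with TALE homeodomain cofactors, the MEIS, PBX and PKNOX proteins, of which 7 of 9 listed were measured. After OR21, 0 of 7 passed over the 4 lines, with a list median of 0.31 log2. MEIS1, the cofactor best known from HOX-driven leukaemia, was at 9.03 log2 in control and 10.42 in OR21-treated MDSL, 2.63-fold higher. The other 8 arrays were at or under background, between 4.35 in control HL60 and 7.03 in control K562. PBX3 was at 6.84 log2 in parental HL60, under its limit, and at 8.39 in OR21-treated, 8.07 in AZA resistant and 8.46 in OR21 resistant HL60. These were at least 2.55-fold, 2.04-fold and 2.69-fold higher. In K562 PBX3 was at 5.66 and 5.31 log2, the 2 lowest of its 10 levels. MEIS3 went from 3.63 to 7.20 log2 with OR21 in HL60, at least 1.12-fold higher, and was under background on the other 9 arrays. PBX2 was 2.05-fold higher in HL60 after OR21. The OR21-treated HL60 levels of PBX3, MEIS3 and PBX2 all come from the array with the high spikes and are given as deposited.

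Chromatin activators of HOX clusters went both ways, and 0 of 15 measured passed over the 4 lines, against 0.0396% of all genes (list median 0.14 log2). WDR5, a core subunit of KMT2 methyltransferase complexes, was lower with OR21 by 3.10-fold in HL60, 2.45-fold in MDSL and 2.01-fold in K562 (mean -1.14 ± 0.42 log2, SD, n = 4 lines, adjusted p = 0.116 in limma). MEN1, or menin, which links KMT2A to chromatin, was 3.23-fold lower in HL60. RBBP5 was 2.53-fold higher, PSIP1 2.38-fold lower and NPM1 2.02-fold lower in MDSL, and AFF1 was 2.25-fold higher in SKM1. MLLT3, an elongation factor and KMT2A fusion partner, was at 9.12 log2 in parental, 8.27 in AZA resistant and 7.22 in OR21 resistant HL60, and was 2.28-fold lower in HL60 after OR21. Among 9 Polycomb genes 0 passed (list median 0.02 log2). EZH2, the Polycomb histone methyltransferase, was 3.61-fold lower in MDSL after OR21, at 7.37 against 9.22 log2. In parental, AZA resistant and OR21 resistant HL60 EZH2 was at 11.65, 11.56 and 11.77 log2. Among 11 upstream factors 0 passed (list median -0.02 log2), and CDX1, CDX2 and CDX4, which activate HOX genes in the embryo, were under background on all 10 arrays. GMNN, or geminin, a replication licensing inhibitor, was 2.72-fold lower in MDSL and 2.59-fold lower in SKM1 after OR21.

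Of 24 noncoding RNAs of the clusters, HOXA-AS3 and HOXB-AS3 were measured, and both were under background on all 10 arrays. Of 16 genes flanking the clusters 14 were measured, with 0 past the test over the 4 lines (0.0396% of all genes) and a median of -0.08 log2. PRAC1, a small nuclear protein gene beside HOXB13, was at 5.19 log2 in parental HL60, 7.28 in AZA resistant and 8.34 in OR21 resistant HL60, at least 1.18-fold and 2.48-fold higher. Its 8 arrays of the 4 lines lay between 5.19 and 6.49 log2, so the derivatives did not overlap with them. The AZA resistant array lay above all 8 for 7.21% of all genes, and the OR21 resistant array for 6.96%. CALCOCO1, a coiled-coil coactivator gene at the HOXC13 end of the HOXC cluster, was higher after OR21 in 4 of 4 lines, by 2.01 ± 0.79 log2 (SD, n = 4 lines, adjusted p = 0.102 in limma). Its control levels in SKM1 and K562, 6.22 and 6.16 log2, were under background. Against the limit it was at least 1.36-fold higher in SKM1 and 3.14-fold higher in K562. CALCOCO1 was not higher in the derivatives, at 6.95 and 7.20 log2 against 7.25 in parental HL60. The AZA resistant level was under its limit of 7.07. SKAP2, an adaptor protein gene, was 2.34-fold higher in HL60, on the array with the high spikes, and 2.39-fold higher in MDSL after OR21. In MDSL SNX10 was 2.73-fold higher and CALCOCO2 3.49-fold lower, while CALCOCO2 was 2.02-fold higher in K562 and MTX2 3.55-fold lower in HL60.

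**Figure D5:**
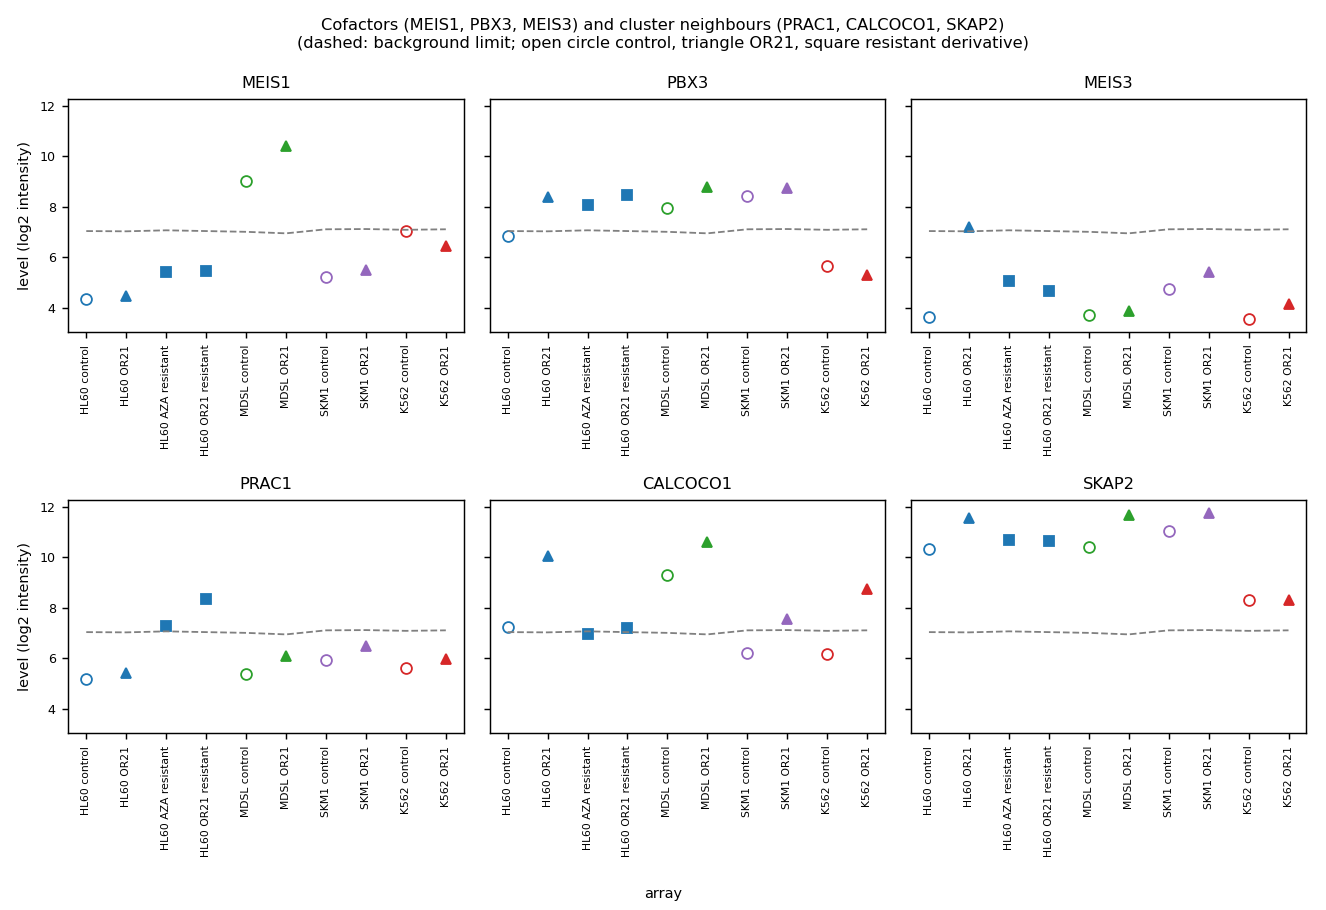
Level in log2 intensity (vertical axis) on the 10 arrays (horizontal axis) of 3 HOX cofactors and 3 genes that flank HOX clusters, with symbols as in the plot of the 6 members and the background limit dashed. MEIS1 is above background in MDSL alone among the lines, PRAC1 in the 2 derivatives alone, and CALCOCO1 is higher with OR21 in each of the 4 lines.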

How the data were processed

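The authors deposited linear probe set intensities for 10 arrays, per the labels 1 array a condition. Software, background correction and normalization are not given in the sources used here. Intensities ran from 4.25 to 405294 and were taken to log2 with no pseudocount and no filter. A platform annotation named 17709 probe sets and left 6642 rows unnamed, which gave 17687 genes, each at its brightest probe set. Every HOX member had 1 probe set. 0 columns belonged to no sample. Members and lists were chosen with earlier results of these data known.

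The OR21 response was fitted over all genes with limma 3.58.1 in R 4.3.3 (lmFit, eBayes, cell line as block, two-sided, Benjamini-Hochberg, threshold 0.05), and line differences as an F test in the same fit. Separate cultures are not stated for any arrays, so p-values measure the spread between lines. Comparisons of 1 array with 1 array have no test. Where the lower array was at or under its background limit, the fold is given against that limit as "at least".

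Values for each array were given for members above background on at least 1 array that also moved 2-fold, passed a test or had one of the 6 largest ranges between controls. Companion genes were named if 2-fold in 1 comparison, at most 8 a list. Steps were tested on simulated data. Alternatives were other scalings, background limits, folds, filters and fits, and leaving out each line. The number of arrays limits the precision. RefSeq (GRCh38.p14) gave the sequences. Figures were drawn with matplotlib.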

Additional observations from a re-analysis of the deposited data

Results flagged for a closer look

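HOXB2 had OR21 differences of opposite sign in the lines treated at 500 nM and those at 100 nM, and the difference between them did not pass its test. Both lines at 500 nM, HL60 and K562, were lower, by a mean of -0.83 log2, and both at 100 nM, MDSL and SKM1, were higher, by 1.95. The difference in response was -2.78 log2. As an interaction term in limma, chosen after this pattern was seen, it had an unadjusted p = 0.00169 and an adjusted p = 0.877 over all genes. No gene of 17687 passed in that fit (968 at an unadjusted p under 0.05). The 2 doses went to different lines, so dose and line cannot be told apart. The HL60 and SKM1 levels of HOXB2 were at or under background. A split of signs by dose was seen for 2 of 23 members, HOXB2 and HOXD9, and for 10.3% of all genes.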

How the results depend on the processing

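The limit on what can be called is background: 17 of 23 members had no level above it, and each condition had 1 array. With the limit at the median of the background probe sets, 13 members were above it on at least 1 array, in place of 6 (80.7% of all genes, in place of 60.5%). The members at least 2-fold different were then 3 in MDSL, 1 in SKM1, 2 in K562 and 6 in the AZA resistant derivative, in place of 1, 0, 1 and 3. All genes went to 11.1%, 10.9%, 8.33% and 11.6%, from 9.61%, 9.10%, 6.75% and 9.49%. At 1.5-fold K562 had 2 (16.9% of all genes). The 4 genes called in the OR21 resistant derivative were called under all 7 alternatives run for it, several of which could not drop a gene. The 1.5-fold rule and the 2 lower limits only loosen the call. The mean of a gene's probe sets changes nothing for members with 1 probe set. Under the other scalings the smallest difference was 1.07 log2, for HOXC9 with quantile normalization. Of all genes 9.08% were called in the main setting and 18.8% at 1.5-fold. The 4 members called between lines were 2 with floored values and from 0, without K562, to 4 when a line was left out. For OR21 over the 4 lines 0 members were called in the 11 planned fits, among them no cell line block, and for the dose term. The planned fits called at most 7 genes of all, and 0 with floored values or without SKM1, so this shows little about stability. The mean difference reversed to -0.01 for HOXC10 with floored values, to 0.11 for HOXB9 without K562 (range -0.28 to 0.11 with a line left out) and to 0.11 for HOXD13 without MDSL (range -0.12 to 0.11). The cause was not tested. The median of all genes in HL60 was -0.05 log2 as deposited, -0.21 with each array centred and -0.81 with spike scaling.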
